A study of Mus musculus with 9 samples.

Results

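The interferon-stimulated genes described here are 39 listed genes that type I interferon, interferon-gamma or both induce in many cell types, with the class I and class II antigen presentation genes left out. All 39 symbols were found among the 23420 gene symbols of the count matrix, and all 39 passed the filter on low counts, which left 13317 genes to test. They were measured in brain endothelial cells of 6-month-old C57BL/6 mice, isolated from brain homogenates by a sort that kept cells with CD31, which marks endothelium, and without CD45, which marks leukocytes. The groups were APP/PS1xRIPK1KD, APP/PS1 and WT, with 3 mice and 3 libraries each, 20000 sorted cells per library and Smart-seq2 libraries primed from the poly(A) tail. APP/PS1 mice are transgenic animals that deposit amyloid in the brain, and APP/PS1xRIPK1KD mice carry the same transgenes with an alteration of Ripk1, a kinase of tumour necrosis factor signalling and necroptosis. The promoters that drive the transgenes and the meaning of KD are not given in the sources used here, and no group carries RIPK1KD without APP/PS1.

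Interferons are secreted proteins that bind receptors on the cell surface. Type I interferons signal through the receptor chains Ifnar1 and Ifnar2 and the kinases Jak1 and Tyk2 to a complex that holds Stat2 and Irf9 and binds the interferon-stimulated response element in the promoters of its target genes. Interferon-gamma signals through Ifngr1 and Ifngr2, and many of its target genes carry a gamma-activated site. Brain endothelium carries both kinds of receptor, and interferon-stimulated genes are known to have a low tonic expression in many tissues without infection.

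Both kinds of element could be read in the RefSeq promoter windows of the listed genes, which span 250 bases before to 50 after each gene start in GRCm38.p6. Of the 39 genes, 28 had such a window. The core of the response element was searched as GAAA, any 2 bases and GAAA again, and the core of the gamma-activated site as TTCNNNGAA, each on both strands, and the motifs can overlap. The response element core stood in the windows of 16 of the 28 genes (57.1%), against 3.99% of the 27025 genes of the table. The gamma-activated site core stood in 8 (28.6%), against 9.55% of the table. Both cores were found in 5 of the 28 and neither in 9. The matches are letters in these windows and were not tested as binding sites. The following stretches are shown because they belong to genes whose values carry the results, and capitals mark the matched cores.
Ifit1 (chr19:34640775-34640823, plus strand, GRCm38.p6): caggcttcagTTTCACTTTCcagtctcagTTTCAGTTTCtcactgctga
Isg15 (chr4:156200865-156200906, minus strand, GRCm38.p6): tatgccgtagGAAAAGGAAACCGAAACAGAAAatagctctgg
Stat2 (chr10:128270266-128270295, plus strand, GRCm38.p6): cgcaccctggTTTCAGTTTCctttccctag
Gbp2 (chr3:142620594-142620623, plus strand, GRCm38.p6): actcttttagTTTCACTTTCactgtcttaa
Gbp3 (chr3:142559989-142560024, plus strand, GRCm38.p6): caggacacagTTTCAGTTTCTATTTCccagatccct
Irf1 (chr11:53769914-53769942, plus strand, GRCm38.p6): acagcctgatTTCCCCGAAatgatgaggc
Igtp (chr11:58199501-58199541, plus strand, GRCm38.p6): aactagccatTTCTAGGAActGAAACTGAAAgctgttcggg
The Isg15 stretch holds 3 overlapping matches of the response element core and the Ifit1 stretch holds 2 separate ones. Irf1 shows a gamma-activated site core without a response element core in its windows. Igtp shows a core of each kind, 2 bases apart. Among the 6 interferon-inducible GTPase genes with a window, 5 held the response element core and 2 the gamma-activated site core.

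Total expected counts per library ranged between 16263792 and 52413200, so that a count of 0 allows up to 0.0541 to 0.189 CPM, taking 3 counts as the floor, which covers counting error only. CPM values are counts scaled to a common library size with the TMM factors of edgeR. The sorted cells had summed CPM over 10 endothelial marker genes between 24250 and 29410, and Ripk1 was counted in all 9 libraries, at 31.4, 44.9 and 35.5 CPM in APP/PS1xRIPK1KD, 75.3, 52.9 and 40.9 CPM in APP/PS1 and 45, 48.1 and 34.9 CPM in WT. All mice are labelled male. Replicates 1 and 2 of every genotype nevertheless had Xist at 264 CPM or more and a sum of at most 0.434 CPM over 4 Y-linked genes, while replicate 3 of every genotype had Xist at 4.78 CPM or less and a Y-linked sum of 150 CPM or more. Counts and medians over the listed genes are therefore also given without replicate 3 of every genotype. In addition, WT replicate 3 stood apart from the other libraries in the listed genes, and comparisons with WT are given with and without it. In bulk RNA, fewer cells of a type and less RNA per cell cannot be told apart.

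The listed genes were expressed in these cells. Their median level over the 9 libraries was 114 CPM, against 18.7 CPM over all genes tested, and 37 of the 39 averaged at least 10 CPM. Of these, 23 averaged at least 100 CPM. Ifitm3, a membrane protein that blocks the entry of viruses, had the highest level at 698 CPM, and Mx1 the lowest at 1.06 CPM. Mx1 encodes a nuclear dynamin-like GTPase against influenza virus, and the allele of C57BL/6 and most other laboratory strains is defective. Between the highest and the lowest library the listed genes differed by a median ratio of 2.05, with the smallest ratio of 1.15 for Parp14, an ADP-ribosyltransferase.

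Per kilobase of exon, the order of levels began with Ifitm3 at 1029 CPM per kb (842 to 1462 over the 9 libraries), Ifitm2 at 291 (232 to 314) and Bst2 at 126 (96.7 to 190). Bst2, also called tetherin, holds budding virus particles at the cell surface. Ifi35 at 101 CPM per kb, Igtp at 89.9, Ifit3 at 84.9, Gbp2 at 82.6, Isg15 at 82.4, Gbp3 at 80.3 and Ifit1 at 78.8 came next, with ranges that overlapped those of their neighbours. The order ended with Dhx58 at 5.64 CPM per kb, Ifitm1 at 4.56 and Mx1 at 0.279. Ranges of neighbours in this order overlapped throughout, except between Ifitm3 and Ifitm2, between Ifitm2 and Bst2, and between Ifitm1 and Mx1. Membrane restriction factors therefore filled the first 3 places, although the family is split, since Ifitm1 stood next to last. Counts of some of these genes rest on reads that fit more than 1 gene. Of the 50-base windows of its transcripts, Gbp6 shared 90.2% with other genes, Oas1a 57.6%, Ifit3 51.2% and Ifitm2 48.5%, and their levels are uncertain. Igtp shared 12.3%, Gbp4 and Gbp7 12.8% each and Ifitm3 10%.

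**Figure D1:**
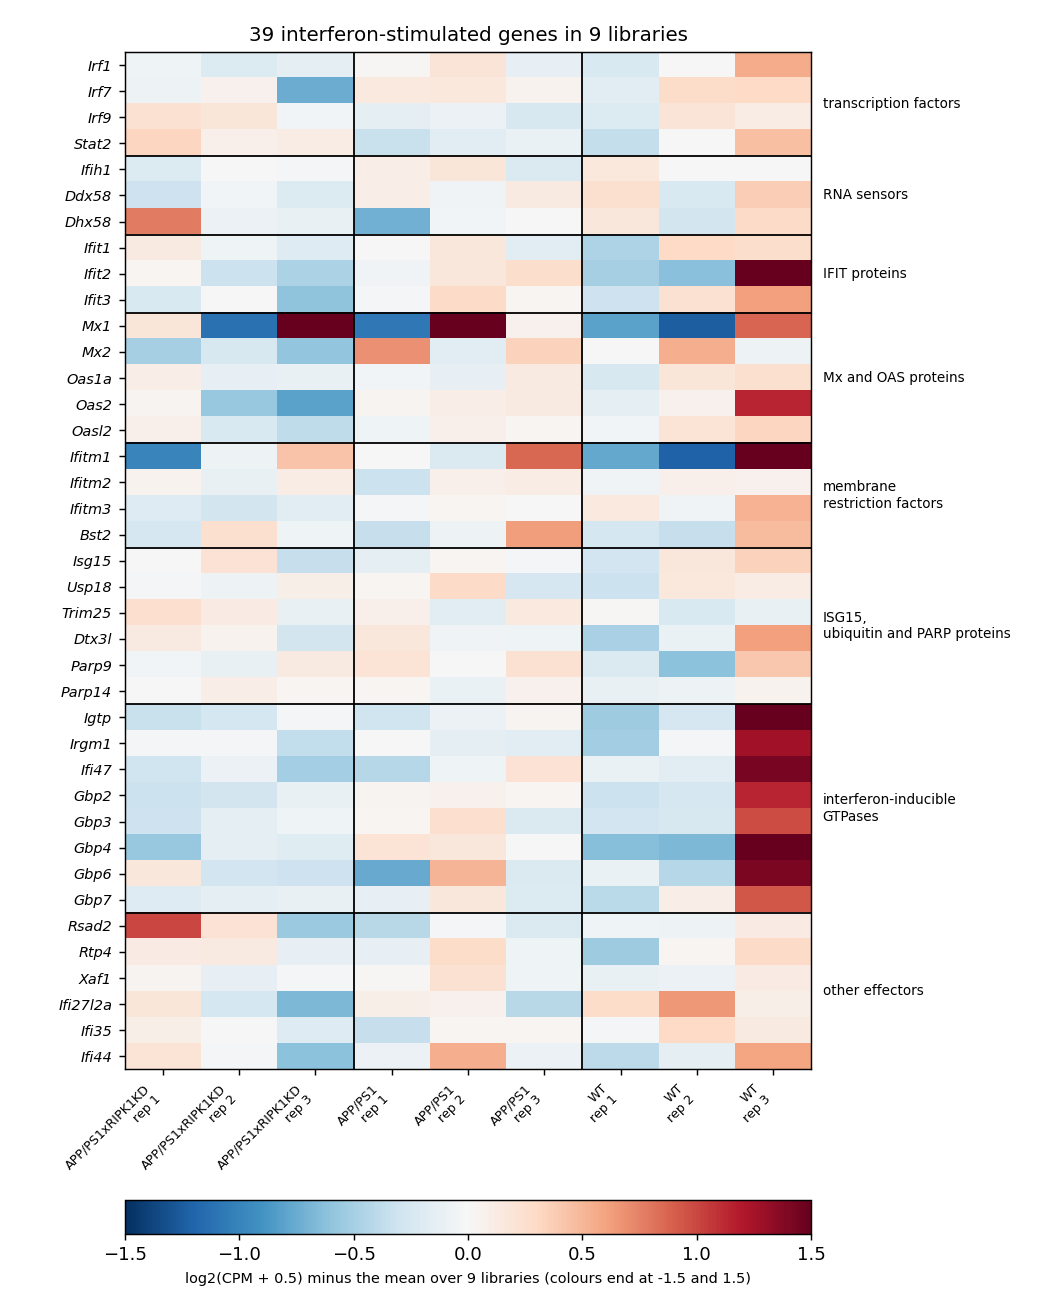
Level of each of the 39 interferon-stimulated genes (vertical, grouped by role) in each of the 9 libraries (horizontal), as log2(CPM + 0.5) minus the mean of that gene over the 9 libraries, with red for higher and blue for lower. WT replicate 3 is the highest library for 24 of the 39 genes, and all 8 GTPase genes have their deepest red there.

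WT replicate 3 was the highest of the 9 libraries for 24 of the 39 genes (61.5%), against 9.33% of all genes tested, and the lowest for 0. WT replicate 1 was the lowest library for 11 of them (28.2%, against 9.36% of all genes tested) and APP/PS1xRIPK1KD replicate 3 for 10 (25.6%, against 9.02%). Relative to the mean of a gene over all libraries, the listed genes had a median of 0.41 on the log2 scale in WT replicate 3, while the median in the other libraries lay between -0.22 and 0.07. Set against the mean of WT replicates 1 and 2, WT replicate 3 had a median ratio of 1.43 over the 39 genes, with 34 ratios above 1 and 12 above 2 (30.8%). The median ratio over all genes tested was 0.983, and 6.27% of them had a ratio above 2.

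The interferon-inducible GTPases accounted for 8 of the 12 ratios above 2. They are cell-autonomous defence proteins of the immunity-related (Igtp, Irgm1, Ifi47) and guanylate-binding (Gbp2, Gbp3, Gbp4, Gbp6, Gbp7) families. Both families take part in the defence against intracellular pathogens, and their genes are known as strong targets of interferon-gamma. All 8 were highest in WT replicate 3, at 2.09 (Gbp7) to 5.52 (Gbp4) times the mean of the other WT libraries, with a median of 2.9. The other 31 listed genes had a median ratio of 1.27, and 4 of them exceeded 2. These 4, named after their values were seen, were Ifit2 (4.23), Oas2 (2.29), Ifitm1 (9.61) and Mx1 (18.9), of which Ifitm1 and Mx1 stood at low levels.

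Gbp4 (chr5:105115767-105139586, minus strand, GRCm38) had 131, 177 and 171 CPM in APP/PS1xRIPK1KD, 224, 219 and 196 CPM in APP/PS1 and 125, 122 and 684 CPM in WT. Igtp, chosen after its values were seen, had 126, 132 and 156 CPM in APP/PS1xRIPK1KD, 129, 150 and 164 CPM in APP/PS1 and 110, 133 and 535 CPM in WT. In both genes the third WT library lay above all others, and the other 2 WT libraries lay within or below the range of the APP/PS1 genotypes. Gbp2 had 157, 163 and 183 CPM in APP/PS1xRIPK1KD, 202, 206 and 201 CPM in APP/PS1 and 158, 165 and 436 CPM in WT. Gbp3 had 203, 229 and 240 CPM in APP/PS1xRIPK1KD, 257, 299 and 216 CPM in APP/PS1 and 206, 213 and 495 CPM in WT. Gbp7 showed the same high library, with 167, 172 and 176 CPM in APP/PS1xRIPK1KD, 175, 214 and 165 CPM in APP/PS1 and 144, 205 and 365 CPM in WT. The genes lie in separate clusters, with Gbp2, Gbp3 and Gbp7 on chromosome 3, Gbp4 and Gbp6 on chromosome 5, and Igtp, Irgm1 and Ifi47 on chromosome 11.

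**Figure D2:**
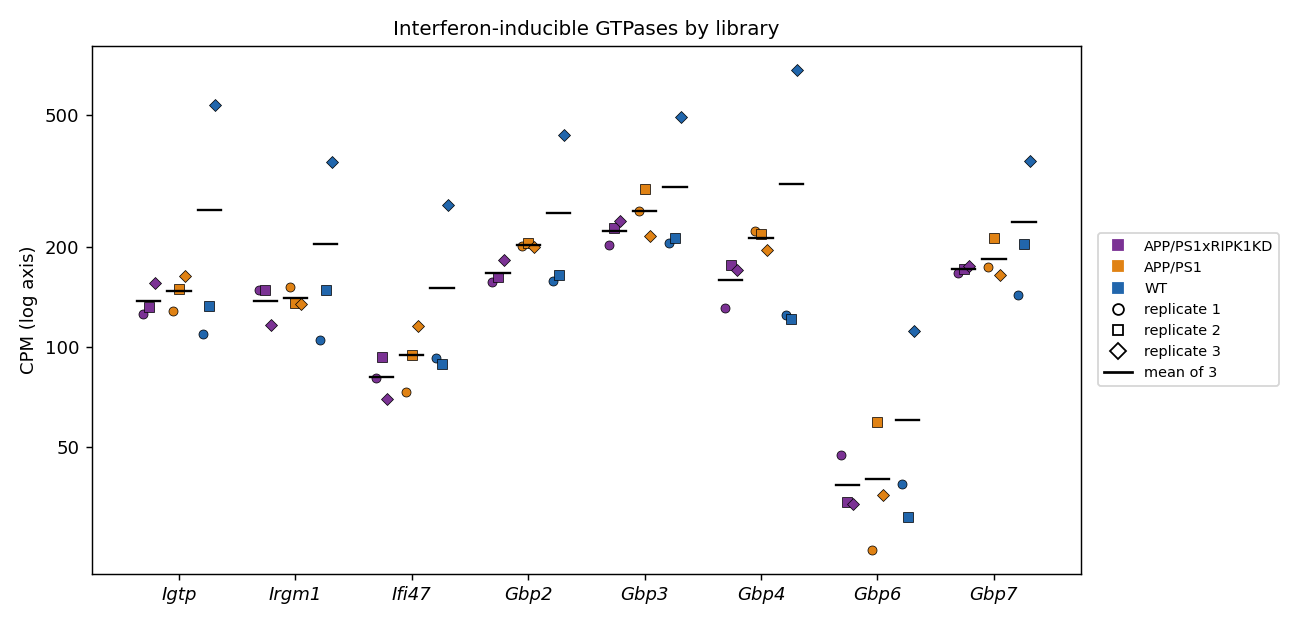
Level of the 8 interferon-inducible GTPase genes in CPM on a log axis, by genotype (colour, APP/PS1xRIPK1KD left, APP/PS1 middle, WT right) and replicate (symbol), with a line at the mean of 3 libraries. The WT replicate 3 diamond is the highest point for each gene, for example 684 CPM for Gbp4.

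Other transcripts moved with this library. The class II genes Cd74, H2-Aa and H2-Ab1, which interferon-gamma also induces and which mark antigen-presenting leukocytes, had 356, 72.9 and 117 CPM in WT replicate 3. In the other 8 libraries Cd74 had at most 16.7 CPM. The summed level of the 13 leukocyte markers found in the matrix was 9.55 to 14.1 CPM in APP/PS1xRIPK1KD, 12 to 39 CPM in APP/PS1 and 12.3 to 555 CPM in WT. Without the 3 class II genes the sum was 9.78 CPM in WT replicate 3 and 1.13 to 3.67 CPM elsewhere. Of these 10 markers, WT replicate 3 had Ptprc (CD45) at 0.128 CPM, Cd3e, Itgam and Nkg7 at 0, S100a8 at 0.193 and S100a9 at 0.107 CPM, each below its highest value elsewhere, at most 0.944 CPM. It was the highest library for Flt3 at 3.77 CPM (at most 0.954 CPM elsewhere), Lyz2 at 2.57 CPM (at most 1.87 elsewhere), Ms4a1 at 1.63 CPM (at most 1.3 elsewhere) and Cd79a at 1.39 CPM (at most 1.37 elsewhere). The part of these transcripts in the levels of the listed genes was not tested. Replicate 3 of the other genotypes, which shares the Y-linked transcripts, was the highest library for 0 of the listed genes in APP/PS1xRIPK1KD and for 2 in APP/PS1.

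The first comparison set APP/PS1 against WT and asks whether the amyloid model changes interferon-stimulated genes in brain endothelium. None of the 39 genes passed an FDR of 0.05 in the quasi-likelihood test of edgeR, and the lowest FDR among them was 0.834. Of all genes tested, 0.0225% were called. The log2 fold changes were below 0 for 29 of the 39 genes (49.8% of all genes) and above 0 for 10, with a median of -0.13 against 0.002 over all genes tested, a median SE of 0.22, and a range of -0.81 (Igtp) to 1.08 (Mx1). At an unadjusted p under 0.05 there were 0 listed genes, against 6.14% of all genes, and DESeq2 called 0. The libraries of 1 listed gene did not overlap between the genotypes, lower in APP/PS1 (10.9% of all genes in either direction, 5.44% lower). This was Ifi27l2a, of the family of small Ifi27 proteins, with 27.5, 27.2 and 19.3 CPM in APP/PS1 and 31.6, 41 and 27.6 CPM in WT (log2 fold change -0.44 ± 0.25 SE, FDR 0.834), and its nearest libraries were almost level.

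The sign of the median turned without WT replicate 3. With the other 8 libraries 29 of the 39 genes were above 0 and 10 below, the median was 0.10, and 5 genes had an unadjusted p under 0.05, all higher in APP/PS1. Of all genes tested in that fit, 7.61% were under that p and 4.13% were under it and higher. The 5 were Ifit2, Ifitm1, Parp9, Gbp2 and Gbp4, and the lowest FDR was 0.313. Without replicate 3 of every genotype, 26 were above 0 and 13 below, the median was 0.11 and the lowest FDR 0.2, with 6 genes (15.4%) under that p, all higher, against 11.1% of all genes under it and 5.78% under it and higher. Without WT replicate 1 there were 5, all lower in APP/PS1, against 2.18% of all genes lower. Without WT replicate 2 there were 2, both lower, against 2.14% of all genes lower. WT replicate 3 was then 1 of 2 WT libraries. The GTPases turned as a whole, with 0 of 8 above 0 and a median of -0.54 in all libraries, and 8 of 8 above 0 and a median of 0.24 without WT replicate 3. Without replicate 3 of every genotype 7 of 8 were above 0, and the median was again 0.24. Gbp4 had a log2 fold change of -0.54 ± 0.64 (FDR 0.947) in all libraries and 0.78 (unadjusted p = 0.000382, FDR 0.313) without WT replicate 3. Because WT replicate 3 was singled out on the values of these same genes, p-values without it are not independent support for a difference.

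By role, the median log2 fold changes of the other groups lay between -0.16 and 0.04 in APP/PS1 against WT with all libraries, no member passed the threshold, and the sign of most medians turned without WT replicate 3. The transcription factors that carry or amplify the response had a median of -0.16, and 0.01 without WT replicate 3. Irf7, the amplifier of type I interferon genes, had 140, 154 and 88.3 CPM in APP/PS1xRIPK1KD, 163, 165 and 153 CPM in APP/PS1 and 131, 179 and 182 CPM in WT. Irf1, a factor that interferon-gamma induces, had 143, 130 and 136 CPM in APP/PS1xRIPK1KD, 152, 171 and 137 CPM in APP/PS1 and 128, 149 and 220 CPM in WT. The ranges of both genes overlapped between APP/PS1 and WT. The cytosolic RNA sensors had a median of -0.09, and -0.06 without that library. Ddx58, which encodes RIG-I, had 66.9, 80.6 and 71.5 CPM in APP/PS1xRIPK1KD, 88.4, 79.7 and 90.7 CPM in APP/PS1 and 97.7, 70.7 and 107 CPM in WT. The IFIT genes, whose products bind foreign RNA, had a median of -0.12 with 0 of 3 above 0, and 0.12 with 3 of 3 above 0 without that library. Ifit1 had 227, 198 and 181 CPM in APP/PS1xRIPK1KD, 207, 233 and 184 CPM in APP/PS1 and 150, 254 and 249 CPM in WT. Isg15, the ubiquitin-like modifier, had 61.9, 71.7 and 48.6 CPM in APP/PS1xRIPK1KD, 56.3, 63.1 and 61.1 CPM in APP/PS1 and 50.5, 69.2 and 78.5 CPM in WT. Usp18, the protease that removes Isg15 from proteins and restrains the receptor, had 88.3, 84.6 and 95.2 CPM in APP/PS1xRIPK1KD, 90.8, 109 and 74.8 CPM in APP/PS1 and 71.2, 99.5 and 96.8 CPM in WT. In Ifit1, Isg15 and Usp18 the APP/PS1 libraries lay within the WT range, apart from the Usp18 value of 109. Bst2 had 93.3, 131 and 106 CPM in APP/PS1xRIPK1KD, 87.3, 105 and 171 CPM in APP/PS1 and 92.6, 87.5 and 154 CPM in WT, with replicate 3 highest in APP/PS1 and WT. The Mx and OAS genes had a median log2 fold change of -0.08 (0.03 without WT replicate 3), the membrane restriction factors of -0.15 (0.19 without it), the genes of Isg15, ubiquitin and PARP proteins of 0.04 (0.11 without it) and the other effectors of -0.06 (0.02 without it). The medians of these groups without replicate 3 of every genotype lay between -0.00 (the RNA sensors) and 0.15 (the IFIT genes and the Isg15 group). The deposited table of the authors for this comparison held 38 of the 39 genes, 9 above 0 and 29 below, with a lowest FDR of 0.862 in the authors' deposited table.

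**Figure D3:**
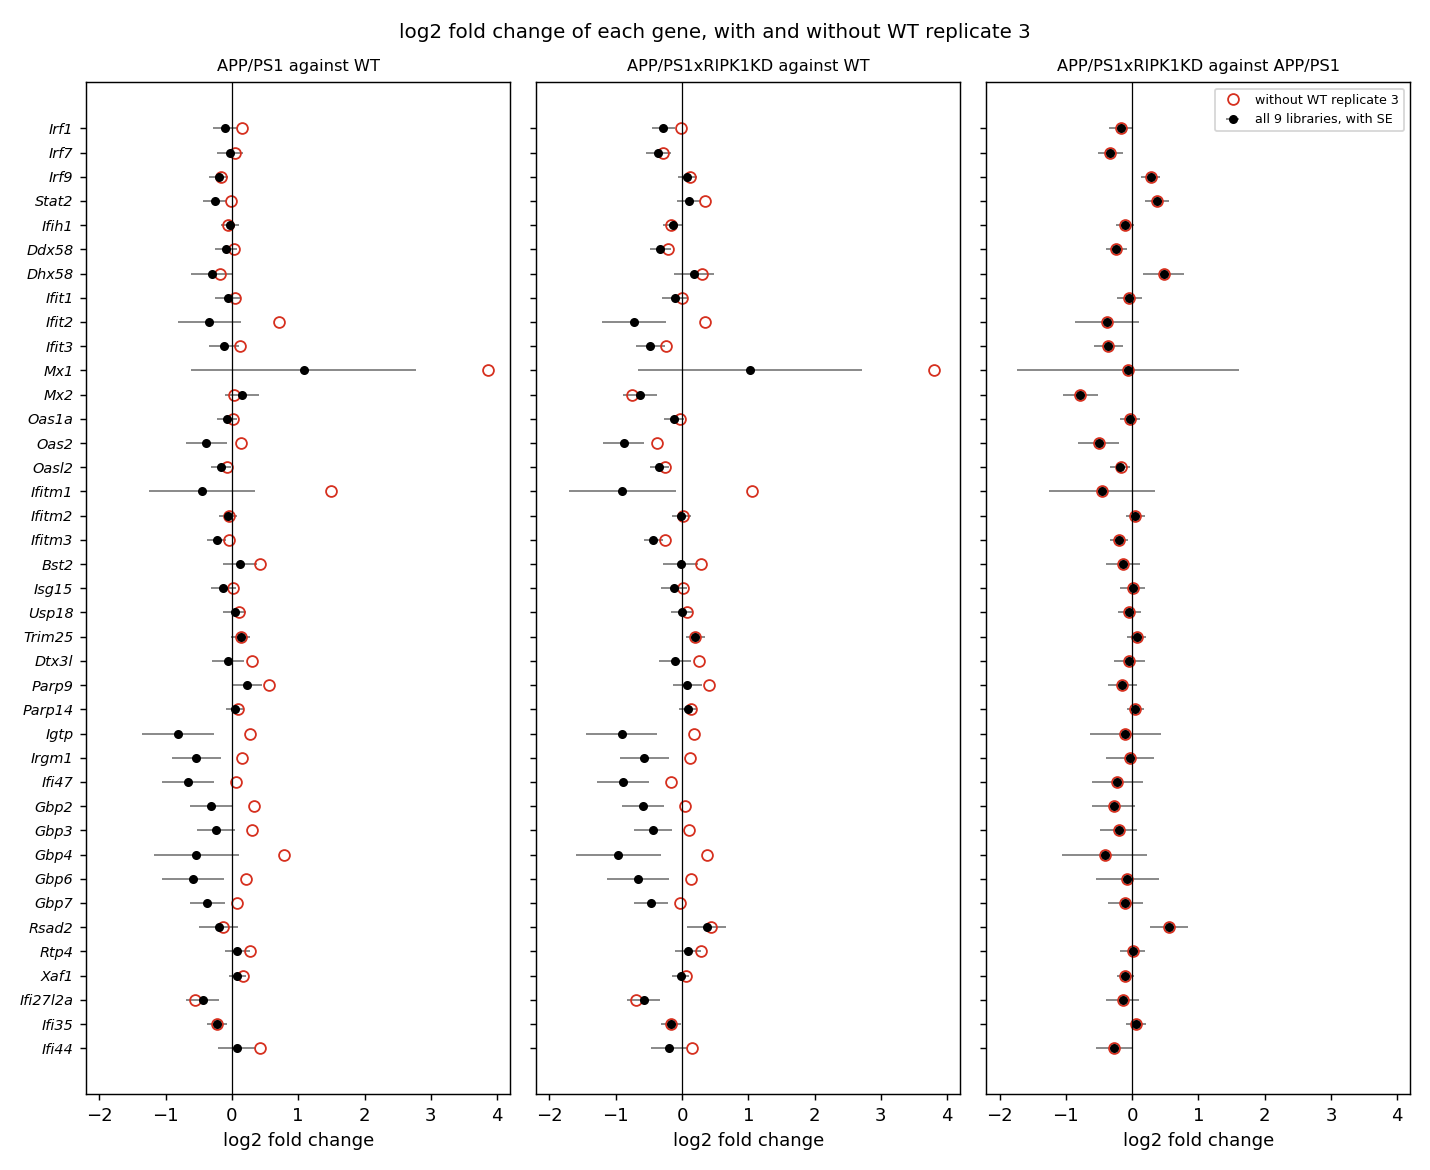
log2 fold change of each of the 39 genes (horizontal axis, genes in the order of roles from top to bottom) in APP/PS1 against WT, APP/PS1xRIPK1KD against WT and APP/PS1xRIPK1KD against APP/PS1, with black points and SE bars for all 9 libraries and red circles for the fit without WT replicate 3. In both comparisons with WT the GTPase points lie below 0 with all libraries, and the median of the 39 genes is -0.13 in APP/PS1 against WT (0.10 without WT replicate 3) and -0.19 in APP/PS1xRIPK1KD against WT (0.07 without it).

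The second comparison set APP/PS1xRIPK1KD against APP/PS1 and asks what the Ripk1 alteration changes on the amyloid background. None of the 39 genes passed the threshold, where 0.00751% of all genes were called, and the lowest FDR among them was 0.98 by edgeR. The median log2 fold change was -0.10 against -0.003 over all genes tested, with 29 genes below 0 (50.6% of all genes) and 10 above, a median SE of 0.22 and a range of -0.78 (Mx2) to 0.56 (Rsad2). At an unadjusted p under 0.05 there was 1 listed gene, Mx2, lower in APP/PS1xRIPK1KD, against 4.78% of all genes in either direction and 2.34% lower, and DESeq2 called 0. The WT libraries enter this comparison through the filter, the scaling and the shared estimate of the spread. The median was -0.10 without WT replicate 3 as well, and without replicate 3 of every genotype it was -0.11 with 24 genes below 0. The count at an unadjusted p under 0.05 was 5 without WT replicate 3, with Stat2 higher and Mx2, Oas2, Gbp2 and Gbp4 lower, against 5.24% of all genes. It was also 5 without replicate 3 of every genotype, with Stat2 and Rsad2 higher and Gbp2, Gbp3 and Gbp4 lower, against 9.09% of all genes, where all libraries gave 4.78%. With only the 6 libraries compared it was 5 again, against 4.94% of all genes. Leaving out any other library gave 0 to 3 listed genes, against 3.48% to 7.32% of all genes.

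By role, the median log2 fold changes were -0.36 for the 3 IFIT genes, -0.18 for the 5 Mx and OAS genes, -0.17 for the 4 membrane restriction factors and -0.15 for the 8 GTPases, and 0 of the 8 GTPases were above 0. They were -0.11 for the RNA sensors, 0.05 for the transcription factors, -0.01 for the Isg15, ubiquitin and PARP genes and -0.05 for the other effectors. Leaving out replicate 3 of every genotype gave -0.20 for the IFIT genes, -0.31 for the Mx and OAS genes, -0.07 for the membrane restriction factors, -0.19 for the RNA sensors and 0.06 for the Isg15, ubiquitin and PARP genes. The GTPases then had -0.16 with 2 of 8 above 0, the transcription factors 0.08 and the other effectors -0.03.

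Libraries did not overlap between APP/PS1xRIPK1KD and APP/PS1 for 7 listed genes, 5 lower and 2 higher in APP/PS1xRIPK1KD, against 9.98% of all genes in either direction, 4.66% lower and 5.32% higher. The lower ones were Mx2, Oas2, Ifitm3, Gbp2 and Gbp4, and the higher ones Irf9 and Stat2. Mx2 (chr16:97535308-97560900, plus strand, GRCm38), of a family of dynamin-like antiviral GTPases, had 14.5, 17.5 and 13.6 CPM in APP/PS1xRIPK1KD and 33.7, 18.5 and 26.5 CPM in APP/PS1. Its gene is annotated as a polymorphic pseudogene, so that its transcript level need not stand for a working protein. The log2 fold change was -0.78 ± 0.26 (unadjusted p = 0.0109, FDR 0.98, edgeR). Mx2 shares 6.71% of its 50-base windows with Mx1. Ifitm3 (chr7:141009586-141010770, minus strand, GRCm38) had 605, 571 and 620 CPM in APP/PS1xRIPK1KD and 674, 703 and 687 CPM in APP/PS1, a narrow separation with a log2 fold change of -0.20 ± 0.14. Oas2, an enzyme that makes short oligoadenylates in response to double-stranded RNA, had 43.9, 28.6 and 24.4 CPM in APP/PS1xRIPK1KD and 44.2, 45.7 and 46.9 CPM in APP/PS1. The nearest libraries of the 2 genotypes were almost level.

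Stat2 and Irf9, components of the complex that binds the response element, were on the other side. Stat2 had 152, 128 and 131 CPM in APP/PS1xRIPK1KD and 96.4, 109 and 113 CPM in APP/PS1, and WT libraries had 95.1, 121 and 166 CPM. The log2 fold change was 0.37 ± 0.18 (unadjusted p = 0.0642, edgeR). Irf9 had 181, 175 and 150 CPM in APP/PS1xRIPK1KD, 140, 146 and 131 CPM in APP/PS1 and 134, 177 and 167 CPM in WT (APP/PS1xRIPK1KD against APP/PS1 log2 fold change 0.28 ± 0.14, unadjusted p = 0.0641). Of the genes known as targets of this complex, some are given here as representatives of their roles. Isg15 had a log2 fold change of 0.01 ± 0.19, Ifit1 of -0.04 ± 0.19, Ifit3 of -0.36 ± 0.22 and Usp18 of -0.04 ± 0.17. The listed genes went both ways, with 10 of the 39 above 0 and 29 below, and Dhx58 had 0.48 ± 0.31. Irf7 had 140, 154 and 88.3 CPM in APP/PS1xRIPK1KD and 163, 165 and 153 CPM in APP/PS1, a log2 fold change of -0.33 ± 0.19. The largest positive value was that of Rsad2, which encodes the antiviral enzyme viperin and was chosen after its values were seen. Its highest library was APP/PS1xRIPK1KD replicate 1, and the ranges overlapped, with 219, 127 and 73.6 CPM in APP/PS1xRIPK1KD and 81.6, 108 and 93.5 CPM in APP/PS1.

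The third comparison set APP/PS1xRIPK1KD against WT. It shares its libraries with the first and second comparison. None of the 39 genes passed the threshold, where 0.0375% of all genes were called, and DESeq2 called 0. The lowest FDR by edgeR was 0.647, that of Ifitm3. The median log2 fold change was -0.19 against 0.003 over all genes tested, with 29 genes below 0 (49.4% of all genes) and 10 above, and a range of -0.96 (Gbp4) to 1.02 (Mx1). At an unadjusted p under 0.05 there were 7 listed genes, all lower in APP/PS1xRIPK1KD, against 6.18% of all genes in either direction and 3.21% lower. They were Ifit3, Mx2, Oas2, Oasl2, Ifitm3, Ifi47 and Ifi27l2a. Without WT replicate 3 the median was 0.07, 25 genes were above 0 and 14 below, and the genes under that p were Mx2 and Ifi27l2a, lower, and Parp9 and Gbp4, higher, against 6.4% of all genes. Without replicate 3 of every genotype the median was 0.08 with 24 genes above 0, and Rsad2, higher, was the 1 gene under that p, against 6.44% of all genes. The count was 15 without WT replicate 1, all lower, against 2.73% of all genes lower. It was 8 without WT replicate 2, all lower, against 3.09% of all genes lower. It was 2 to 5 when 1 library of APP/PS1xRIPK1KD or APP/PS1 was left out (2 without APP/PS1xRIPK1KD replicate 3 and 3 without APP/PS1 replicate 2), against 5.18% to 6.59% of all genes. It was 3 with only the 6 libraries compared, against 6.3% of all genes, and 4 with the replicate block, against 5.48%.

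By role, the GTPases had a median of -0.62 with 0 of 8 above 0, and 0.11 with 6 of 8 above 0 without WT replicate 3. The IFIT genes had -0.48, and 0.00 without that library. The Mx and OAS genes had -0.34 and kept their side at -0.25 without it, while the membrane restriction factors had -0.22, and 0.15 without it. The transcription factors had -0.10, and 0.05 without it, the RNA sensors -0.14, and -0.16 without it, the Isg15, ubiquitin and PARP genes 0.04, and 0.17 without it, and the other effectors -0.10, and 0.10 without it. Without replicate 3 of every genotype the medians were 0.06 for the GTPases, 0.08 for the IFIT genes, -0.15 for the Mx and OAS genes and 0.14 for the membrane restriction factors. They were then 0.09 for the transcription factors, -0.19 for the RNA sensors, 0.22 for the Isg15 group and 0.20 for the other effectors.

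Libraries did not overlap between APP/PS1xRIPK1KD and WT for 3 listed genes, all lower in APP/PS1xRIPK1KD, against 12% of all genes in either direction and 5.99% lower. Ifitm3 had 605, 571 and 620 CPM in APP/PS1xRIPK1KD and 764, 665 and 991 CPM in WT. Its log2 fold change was -0.43 ± 0.14 (unadjusted p = 0.00972, FDR 0.647, edgeR) and -0.25 (unadjusted p = 0.0618) without WT replicate 3. Mx2 had 20.9, 30.4 and 19.6 CPM in WT, all above its APP/PS1xRIPK1KD libraries, with a log2 fold change of -0.63 ± 0.26 (unadjusted p = 0.0312, FDR 0.764) and -0.75 without WT replicate 3. Ifih1, which encodes the RNA sensor MDA5, had 107, 123 and 122 CPM in APP/PS1xRIPK1KD and 138, 124 and 123 CPM in WT, and its nearest libraries were level to 3 digits. Ifit3 had 123, 145 and 94.9 CPM in APP/PS1xRIPK1KD, 141, 176 and 147 CPM in APP/PS1 and 116, 169 and 221 CPM in WT, and the ranges overlapped.

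The ligands of the pathway were at or near 0 in these cells. Of 21 interferon genes listed, 19 were in the matrix, 13 had 0 counts in all libraries, Ifnb1 and Ifng among them, and the highest count of the other 6 was 7, for Ifnz. None passed the filter. Of the 10 receptor and kinase genes, 9 were tested and 0 passed the threshold in any comparison by edgeR.

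Ifnar1, the signalling chain of the type I interferon receptor on chromosome 16, had 434, 409 and 438 CPM in APP/PS1xRIPK1KD, 379, 369 and 359 CPM in APP/PS1 and 282, 284 and 349 CPM in WT, and no pair of genotypes overlapped. Against WT, the log2 fold change of APP/PS1xRIPK1KD was 0.49 ± 0.12 (unadjusted p = 0.00151, FDR 0.549 by edgeR, adjusted p = 0.0272 by DESeq2). It was 0.60 without WT replicate 3 and 0.58 without replicate 3 of every genotype. APP/PS1 against WT gave 0.27 ± 0.12 (unadjusted p = 0.0399, FDR 0.795), and APP/PS1xRIPK1KD against APP/PS1 gave 0.21 ± 0.12 (unadjusted p = 0.102). The authors' deposited table gave a smaller value for Ifnar1 in APP/PS1 against WT, 0.10 (FDR 0.996 in that table). The cause of this difference was not tested. Il10rb, a receptor chain of interferon-lambda and interleukin-10 whose gene neighbours Ifnar1, had 395, 333 and 370 CPM in APP/PS1xRIPK1KD, 253, 297 and 302 CPM in APP/PS1 and 235, 291 and 301 CPM in WT. Its log2 fold change was 0.37 ± 0.14 against APP/PS1 (FDR 0.98) and 0.41 ± 0.14 against WT (FDR 0.651). Of the other chains of this gene cluster, Ifnar2 averaged 208 ± 29 CPM in APP/PS1xRIPK1KD, 185 ± 8.27 CPM in APP/PS1 and 190 ± 14.2 CPM in WT (SD, n = 3 each). Ifngr2 averaged 27.5 ± 2.73 CPM in APP/PS1xRIPK1KD, 30.8 ± 2.43 CPM in APP/PS1 and 28 ± 6.18 CPM in WT.

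Jak1 had 126, 129 and 134 CPM in APP/PS1xRIPK1KD, 141, 145 and 141 CPM in APP/PS1 and 112, 111 and 122 CPM in WT. APP/PS1 was above WT by 0.30 ± 0.11 on the log2 scale (unadjusted p = 0.0171, FDR 0.787, edgeR). Ifngr1 averaged 124 ± 10.2 CPM in APP/PS1xRIPK1KD, 126 ± 9.76 CPM in APP/PS1 and 119 ± 10.9 CPM in WT.

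Among 12 tested genes of a list of sensors and adaptors, most of which act before interferon is made, 0 passed the threshold by edgeR. Aim2, an inflammasome sensor of cytosolic DNA on chromosome 1, had 4.43, 3.88 and 4.36 CPM in APP/PS1xRIPK1KD, 11.5, 12.4 and 10.8 CPM in APP/PS1 and 8.44, 9.96 and 7.66 CPM in WT. The 3 genotypes did not overlap, and the lowest APP/PS1 library lay above the highest WT library. APP/PS1xRIPK1KD against APP/PS1 gave a log2 fold change of -1.45 ± 0.28 (unadjusted p = 0.000244, FDR 0.696 by edgeR, adjusted p = 0.00546 by DESeq2), and -1.52 without replicate 3 of every genotype. APP/PS1xRIPK1KD against WT gave -1.04 ± 0.28 (FDR 0.552 by edgeR, adjusted p = 0.0947 by DESeq2). Tmem173, the adaptor STING, had 6.28, 5.27 and 5.06 CPM in APP/PS1xRIPK1KD, 5.98, 7.45 and 7.37 CPM in APP/PS1 and 7.73, 7.88 and 14.3 CPM in WT. Its log2 fold change in APP/PS1xRIPK1KD against WT was -0.85 ± 0.34 (FDR 0.749), and -0.49 without WT replicate 3.

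Of 16 negative regulators, all tested, 0 passed the threshold in any comparison by edgeR. Socs1, the inhibitor of the Jak kinases, had 4.63, 5.13 and 5.1 CPM in APP/PS1xRIPK1KD, 4.15, 3.41 and 4.35 CPM in APP/PS1 and 7.32, 5.4 and 7.83 CPM in WT. APP/PS1 against WT gave -0.79 ± 0.35 (unadjusted p = 0.046, FDR 0.801, edgeR). Ptpn6, a phosphatase known mainly from blood cells, had 0.0408, 0 and 1.19 CPM in APP/PS1xRIPK1KD, 0, 0 and 0.0596 CPM in APP/PS1 and 2.6, 2.14 and 2.48 CPM in WT, at most 2.6 CPM in any library. Its FDR in APP/PS1 against WT was 0.787, and DESeq2 gave no adjusted p.

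**Figure D4:**
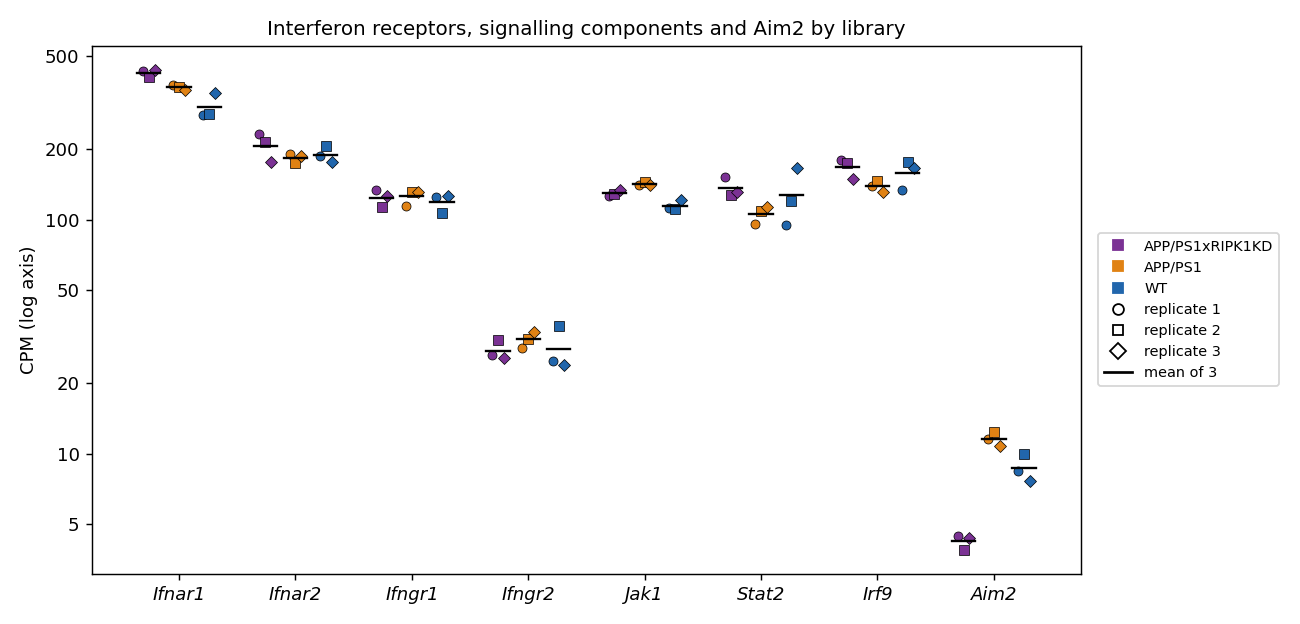
Level in CPM on a log axis of interferon receptor chains, signalling components and Aim2, by genotype (colour, APP/PS1xRIPK1KD left, APP/PS1 middle, WT right) and replicate (symbol), with a line at the mean of 3 libraries. Ifnar1 is highest in APP/PS1xRIPK1KD, at 409 to 438 CPM, and Aim2 lowest there, at 3.88 to 4.43 CPM, and neither passed the edgeR threshold.

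Mural cell transcripts, which come from pericytes and smooth muscle, also differed in level between WT and the APP/PS1 genotypes. Their sum over 10 markers was 66.6 to 256 CPM in APP/PS1xRIPK1KD, 176 to 229 CPM in APP/PS1 and 11.5 to 56.1 CPM in WT, and no library of the APP/PS1 genotypes lay in the WT range. Of these markers, Vtn and Atp13a5 passed the edgeR threshold in APP/PS1 against WT, both higher in APP/PS1 (FDR 0.0135 each). Atp13a5 also passed it in APP/PS1xRIPK1KD against WT, higher in APP/PS1xRIPK1KD (FDR 0.0122). The other mural markers did not pass it. The sum over 5 astrocyte markers was 0.799 to 4.9 CPM in APP/PS1xRIPK1KD, 3.56 to 4.41 CPM in APP/PS1 and 0.316 to 1.93 CPM in WT. For 10 microglial markers it was 61.8 to 76.1 CPM in APP/PS1xRIPK1KD, 55.7 to 91.9 CPM in APP/PS1 and 53.5 to 84.1 CPM in WT. In APP/PS1 against WT 9 of these 10 were above 0 (50.2% of all genes), with a median log2 fold change of 0.88. Without replicate 3 of every genotype 4 of the 10 were above 0, with a median of -0.13. The sum over 5 oligodendrocyte markers was 31.3 to 33.4 CPM in APP/PS1xRIPK1KD, 30.2 to 77.8 CPM in APP/PS1 and 26 to 40.3 CPM in WT, and 5 of 5 of them were above 0 in APP/PS1 against WT, 3 at an unadjusted p under 0.05. The share of expected counts on Rn45s, a precursor of ribosomal RNA, was 20.2% to 26.4% in APP/PS1xRIPK1KD, 15.8% to 28.6% in APP/PS1 and 29.6% to 33.8% in WT, so that every WT library lay above the others. The part of these transcripts in the values of Ifnar1, Aim2 and the listed genes was not tested.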

How the data were processed

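Bulk Smart-seq2 libraries of sorted brain endothelial cells, which carry no strand or molecular identifiers, were analysed for 3 genotypes with 3 mice each. The deposited matrix holds expected counts per gene symbol from RSEM, and the submitters' processing notes name Bowtie 0.12.2, RSEM, edgeR 3.10.2 and GRCm38. The deposited authors' table for APP/PS1 against WT holds log2 fold changes, a likelihood ratio score, p-values and FDR, and was used only for comparison.

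Expected counts were rounded, and filterByExpr (minimum count 10, minimum total 15) kept 13317 of 23420 genes. An edgeR 4.0.16 quasi-likelihood fit (TMM, robust, all 9 libraries, 1 coefficient per genotype) gave 3 two-sided contrasts, with Benjamini-Hochberg adjustment over all genes tested and a threshold of 0.05. The fit was tested on simulated data. ± is the SE for fold changes and the SD for levels. Exon lengths and positions are from GENCODE M21 (GRCm38), and promoter sequences from RefSeq (GRCm38.p6). Software was R 4.3.3, limma 3.58.1, DESeq2 1.42.0, Python 3.11.15, numpy 2.4.6, pandas 2.3.3 and matplotlib 3.10.9.

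The members, gene lists and alternatives were chosen with earlier results of these data known. Given in every library were listed genes past the threshold in any comparison, those with non-overlapping libraries and an unadjusted p under 0.05, the 6 of highest level, and a set of role representatives. The same rule on overlap and p, with Ifnar1, Ifnar2, Ifngr1 and Ifngr2, served for the pathway lists, from which 1 gene is not reported here. Genes outside it were chosen after their values were seen. Same-numbered replicates of different genotypes were not taken as paired. Alternatives were DESeq2, limma-voom, RLE scaling, no filter, a replicate block, leaving out each library, leaving out replicate 3 of every genotype, and the 6 libraries compared only.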

Additional observations from a re-analysis of the deposited data

How the results depend on the processing

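None of the 39 genes was called in any of the 3 comparisons under any of the 16 alternatives. The median log2 fold change of the 39 genes kept its sign in APP/PS1xRIPK1KD against APP/PS1, and leaving out 1 library at a time gave -0.14 to -0.05. In APP/PS1 against WT leaving out 1 library gave -0.27 to 0.10, and in APP/PS1xRIPK1KD against WT -0.33 to 0.07, where the value above 0 is that without WT replicate 3. Without replicate 3 of every genotype the median was 0.11 in APP/PS1 against WT and 0.08 in APP/PS1xRIPK1KD against WT.

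Counts of called genes over the whole table were small and moved with the settings. For APP/PS1 against WT, 3 genes were called, 45 by DESeq2, 7 without the filter and 1 to 5 when 1 library was left out. For APP/PS1xRIPK1KD against APP/PS1, 1 was called, 19 by DESeq2, 0 by limma-voom, 0 without replicate 3 of every genotype and 0 to 4 when 1 library was left out. For APP/PS1xRIPK1KD against WT, 5 were called, 62 by DESeq2, 2 by limma-voom, 14 without the filter, 8 without replicate 3 of every genotype, 3 with only the 6 libraries compared and 2 to 9 when 1 library was left out. With the replicate block the counts were 2 genes in APP/PS1 against WT, 0 in APP/PS1xRIPK1KD against APP/PS1 and 0 in APP/PS1xRIPK1KD against WT, and same-numbered libraries had correlations of -0.043 to 0.153, so the numbers were not taken to pair the mice. Of 1247 alternative values of the named genes, 2 passed the threshold that the values reported here missed, Ifnar1 in APP/PS1xRIPK1KD against WT and Aim2 in APP/PS1xRIPK1KD against APP/PS1, both by DESeq2. The fold change had the other sign in 69 of the 1247 values, which belonged to 34 of the 78 results of named genes. Of these 69, 16 came from the fit without WT replicate 3. The cause of these differences was not tested. With 3 mice per genotype and a median SE of 0.22 on the log2 scale, small differences were not detectable.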

Other observations

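Some interferon-induced genes outside the list of 39 also had their highest level in WT replicate 3. Of 38 further genes, 34 were tested, and 0 passed the threshold in any comparison by edgeR. At an unadjusted p under 0.05 there were at most 2 in a comparison, against 4.78% to 6.18% of all genes tested. Their median ratio of WT replicate 3 to the mean of the other WT libraries was 1.43, against 0.983 over all genes tested. The ratio was above 2 for 11 of the 34 (32.4%), against 6.27% of all genes tested. The genes named here were chosen after their values were seen. Tgtp2, a GTPase of the immunity-related family, had 211, 195 and 164 CPM in APP/PS1xRIPK1KD, 282, 191 and 299 CPM in APP/PS1 and 193, 246 and 1078 CPM in WT. Iigp1, of the same family, had 64.8, 72.8 and 52.3 CPM in APP/PS1xRIPK1KD, 52.6, 77.8 and 58.7 CPM in APP/PS1 and 56.1, 65 and 211 CPM in WT. Zbp1, a sensor of unusual nucleic acid structures, is not among the 38 genes and was taken from the list of sensors and adaptors. It had 6.08, 7.3 and 4.49 CPM in APP/PS1xRIPK1KD, 6.23, 9.77 and 4.61 CPM in APP/PS1 and 6.34, 5.09 and 47.3 CPM in WT. In Tgtp2, Iigp1 and Zbp1 WT replicate 3 was the highest library. Cxcl10, a chemokine that interferon-gamma induces strongly, had 0.408, 6.09 and 6.05 CPM in APP/PS1xRIPK1KD, 0.944, 5.2 and 5.52 CPM in APP/PS1 and 2.21, 0.923 and 4.17 CPM in WT, and did not have this pattern.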
